A study of Mus musculus with 3 samples.

Results

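The genes described here are those of the mouse T cell receptor beta locus: 35 Trbv (variable), 2 Trbd (diversity), 14 Trbj (joining) and 2 Trbc (constant) genes. They were chosen by symbol, as the gene rows that start with Trbv, Trbd, Trbj or Trbc, and make up 53 of the 32285 gene rows of the expression matrices. All 53 matched a RefSeq gene of GRCm38.p6 by symbol, and the locus lies on chromosome 6 between positions 40891296 and 41558371. A developing T cell builds its beta chain by joining 1 V, 1 D and 1 J segment and splicing the product to a C gene, so the V segment in its mRNA marks the cell and its offspring. Cells of 1 clone share their segments, and a clone that has grown large raises the share of its segment in that animal. In mice that carry superantigens of endogenous mammary tumour viruses, cells with particular V segments are deleted in the thymus or expand.

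The cells were CD4+ T cells sorted from the kidneys and spleens of MRL/lpr mice, a lupus-prone strain with defective Fas. The KO mice carried loxP-flanked Ezh2 on both alleles (Ezh2fl/fl) and the CD4-Cre/ERT2 transgene, whose Cre is driven by the Cd4 promoter and made active by tamoxifen, and the WT mice were Ezh2fl/fl littermates without Cre. Mice of both genotypes were given tamoxifen at 300 mg/kg by gavage, 3 days a week in alternate weeks, from 10 weeks of age (preventative) or 14 weeks (therapeutic) until 24 weeks. The start age of each single mouse is not given, and the Cre line had been backcrossed to MRL/lpr for 6 generations. The labels name 10 floxed and 9 Cre-carrying sorted mice, and the deposited tag key covers 9. Cells could be assigned to a mouse for the first day of that key only: 2 KO mice (KO1 and KO2) and 3 WT mice (WT1, WT2 and WT3), each with 1 kidney and 1 spleen sample. The key pairs mice with tag sequences and the matrices give tag numbers, and no file states how these correspond. Row order within the key was taken as the tag number, an inference on which every genotype and mouse name here rests. It put all 10 blocks in the organ of their matrix, which does not check the genotype within an organ. The Cd4 promoter is also active in thymocytes that later become CD8+ cells, so the Cre is not restricted to CD4+ T cells.

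The 10 samples held 13337 cells, and no cell barcode occurred in more than 1 of them. Cells with at least 2 UMIs from a list of CD8 T cell, gamma-delta T or NK cell, B cell, myeloid, kidney tubule or blood cell genes were set aside, which left 12824. Kept cells numbered 195 in the kidney of KO2 and 638 to 1560 in the other kidneys, against 898 to 2313 in the spleens, at a median of 3154.5 to 3625.5 UMIs per cell. Cd3e was found in 92.6% to 98.1% of the kept cells of each sample, Cd4 in 50.3% to 72.2% and Trac in 37.8% to 66.0%. Ezh2 stood at 48.7 and 55.5 CPM (UMIs scaled to the total of the sample) in the KO spleens against 77.1 to 176 in the WT spleens, and at 52.5 and 70.9 in the KO kidneys against 85.2 to 154 in the WT kidneys. Which part of the transcript the deletion removes is not given in the sources used here.

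The constant genes gave 15265 UMIs, the variable segments 68839, the joining segments 2289 and the diversity segments 0. Of the 35 Trbv genes 25 had at least 1 UMI and 10 had none, and RefSeq annotates all 10 as pseudogenes. Pseudogenes with UMIs were also found. Trbv29, annotated as a V segment pseudogene, had 1580 UMIs in 320 cells, and Trbj2-6, annotated as a J segment pseudogene, had 209 UMIs. Trbv22 and Trbv12-3, also V segment pseudogenes, had 45 and 2. In the other direction, Trbv21 is annotated as a V segment and had 15 UMIs.

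A cell was said to call a Trbv segment if it held at least 2 UMIs of it and that segment made up at least 75% of the cell's Trbv UMIs. By this rule 7807 kept cells (60.9%, 95% Wilson interval 60 to 61.7) called a segment, and 23 segments were called by at least 1 cell. The kept cells were set beside 14 cells with B cell genes and no UMI of Cd3e, Cd4 or Trac. None of the 14 called a segment, with an upper Wilson bound of 21.5%, at a median of 4501 UMIs against 3362 in the kept cells. Over all the other cell lists, 3 of 35 such cells did (8.57%, 2.96 to 22.4), at a median of 5271 UMIs. Droplets that caught free RNA of Cd3e, Cd4 or Trac were left out by this choice, so these values do not measure free RNA. All intervals on shares of cells cover counting error only.

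Trbv usage was broad. The 8 segments with the highest mean share over the 10 samples held 82.8% of calling cells between them, and no segment exceeded 19.9% in any sample. Trbv19 led with 14.1% ± 2.50 (SD, n = 10 samples from 5 mice), followed by Trbv20 with 12.8% ± 2.71, Trbv13-1 with 12.2% ± 1.68 and Trbv13-2 with 11.5% ± 2.76. These 4 overlapped one another in their ranges over samples and have no order beyond that spread. Trbv1 stood at 9.44% ± 2.41, Trbv26 at 8.57% ± 4.23, Trbv31 at 7.90% ± 1.72, Trbv2 at 6.24% ± 2.01 and Trbv13-3 at 5.62% ± 2.71. The step from Trbv13-3 to the next segment, Trbv4 with 2.85% ± 1.19, was the widest between neighbours in this order.

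**Figure D1:**
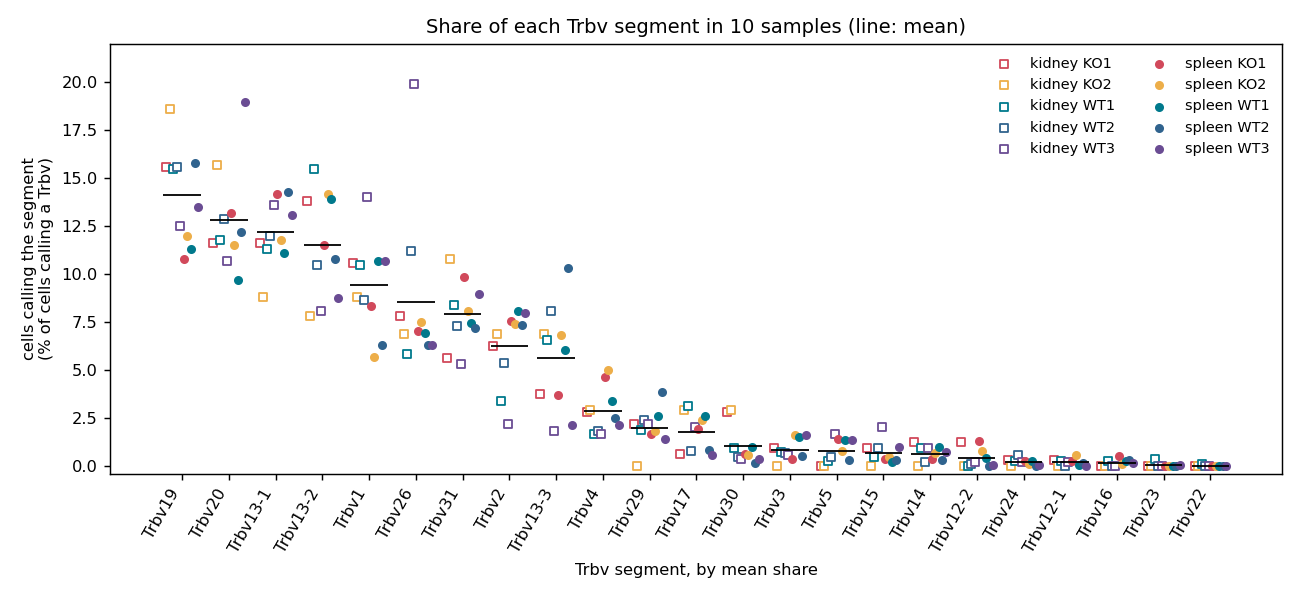
Each point is 1 sample and gives the share of a Trbv segment among the cells that called any Trbv (vertical axis, %), for the 23 called segments in order of their mean (line). Open squares are kidneys, filled circles spleens and colours mice, and the points far above the rest are Trbv26 in the kidney of WT3 (19.9%) and Trbv20 in the spleen of WT3 (19.0%).

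The leading segment differed between samples. Trbv19 was the most frequent in the kidneys of KO1 (15.6%, Wilson interval 12.1 to 20.0), KO2 (18.6%, 12.3 to 27.3) and WT2 (15.6%, 13.4 to 18.2) and in the spleen of WT2 (15.8%, 13.1 to 19.0). Trbv13-2 led in the kidney of WT1 (15.5%, 13.3 to 18.1), where Trbv19 had the same number of cells, 133, and in the spleens of WT1 (13.9%, 12.2 to 15.7) and KO2 (14.2%, 12.1 to 16.7). Trbv13-1 led in the spleen of KO1 with 14.2% (12 to 16.9). Both samples of WT3 were led by a segment that was not first elsewhere: Trbv20 in its spleen (19.0%, 17.0 to 21.2) and Trbv26 in its kidney (19.9%, 16.7 to 23.4).

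The largest spread between samples belonged to Trbv26. Its share was 5.84%, 11.2% and 19.9% in the kidneys of WT1, WT2 and WT3, 7.81% and 6.86% in those of KO1 and KO2, and 6.29% to 7.52% in all 5 spleens. The high values were thus those of 2 WT kidneys, and the 5 spleens lay close together. Trbv13-3 varied between mice in both organs: it held 10.3% of the spleen and 8.10% of the kidney of WT2 against 2.15% and 1.84% in WT3, and KO1 was low in both organs too, with 3.72% and 3.75%. Trbv20 in the spleen of WT3 stood apart from the other spleens, which held 9.67% to 13.2%.

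The segments listed here as targets of mammary tumour virus superantigens fell at both ends of the order. The list was fixed beforehand and does not hold every such target. Of the 8 listed, Trbv19, Trbv1 and Trbv26 were among the most used. Trbv17 held 1.79% ± 0.998, Trbv15 0.667% ± 0.577, Trbv12-2 0.41% ± 0.513, Trbv12-1 0.179% ± 0.179 and Trbv16 0.161% ± 0.175 (SD, n = 10 samples). The 4 least used segments with a call were Trbv12-1, Trbv16, Trbv23 (4 cells in all) and Trbv22 (1 cell). A share of 0 allows up to 0.2% in the sample with most calling cells, the spleen of WT1, and up to 2.94% in the kidney of KO2, which had 102.

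The rarely called segments were not equally rare as transcripts. Among 21 segments found at 2 or more UMIs in at least 20 cells, a median of 70.9% of those cells called the segment. The value was 84.4% for Trbv26, 82.7% for Trbv13-1 and 90.5% for Trbv30, but 17.0% for Trbv12-2 (30 of 176 cells, Wilson interval 12.2 to 23.3), 17.7% for Trbv24, 18.3% for Trbv16, 31.0% for Trbv12-1 and 33.6% for Trbv15. The 5 segments under 50% included 4 of the 8 on the superantigen list, which is not a full set of targets. The rest of that list lay above 50%: Trbv17 at 61.6%, Trbv1 at 77.1%, Trbv19 at 80.8% and Trbv26 at 84.4%. In 65.3% of the Trbv12-2 cells another segment had more UMIs. The segment most often found with it was Trbv13-2, the next gene of the locus on its 3′ side at a distance of 2032 bases, which was present in 58.5% of Trbv12-2 cells.

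Seen from Trbv13-2, 24.6% of the 1307 cells with at least 2 UMIs of it also held Trbv12-2, against 4.21% of the other cells with a Trbv UMI, and the value was higher in all 10 samples. These cells held 38.0% of all Trbv12-2 UMIs. The same arrangement of Trbv12-1 and Trbv13-1, 1969 bases apart, gave 2.22% against 1.06%, again higher in 10 of 10 samples. Other neighbours went both ways. Trbv16 was found in 9.38% of Trbv17 cells and 1.53% of others at 10862 bases, higher in 5 samples. Trbv2 was found in 11.5% of Trbv3 cells and 8.81% of others at 399 bases, higher in 4 samples. Lower values were also seen. Trbv13-1 was found in 2.27% of Trbv12-2 cells and 14.5% of others at 2396 bases, Trbv19 in 2.78% of Trbv20 cells and 17.4% of others at 9225 bases, and Trbv1 in 2.50% of Trbv2 cells and 13.5% of others at 155671 bases. The others include cells that call the neighbour itself: 967 for Trbv13-1, 1043 for Trbv19 and 744 for Trbv1, against 30 for Trbv12-2, 13 for Trbv12-1 and 15 for Trbv16. A lower value for a much used neighbour can follow from that alone and says nothing on distance. All the shares given for neighbours rest on sequence counted at neighbouring genes. How reads that span or match both were counted is not given in the sources used here.

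**Figure D2:**
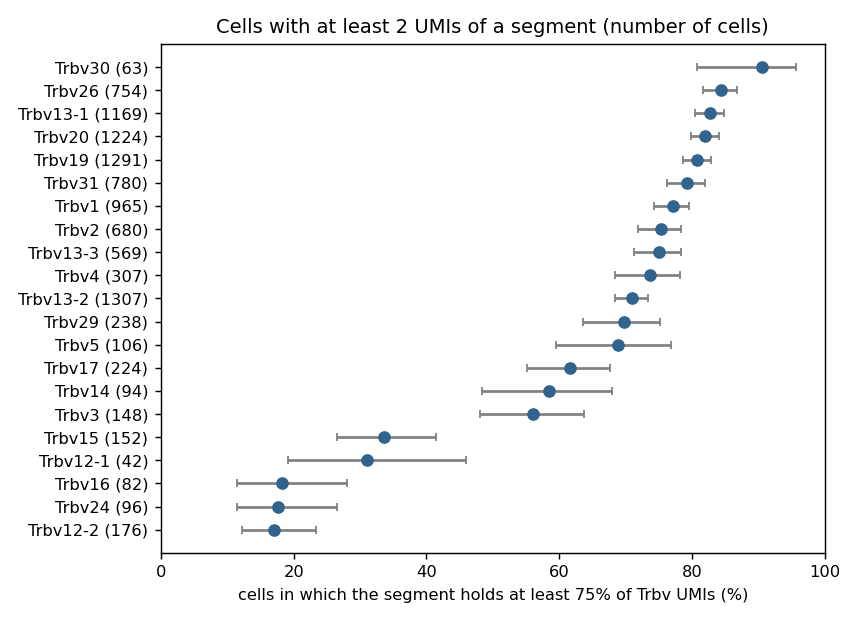
For each Trbv segment, the point gives the share of cells with at least 2 UMIs of it in which it held at least 75% of the Trbv UMIs (horizontal axis, %, bars: 95% Wilson intervals, number of cells in brackets). Trbv12-2, Trbv24, Trbv16, Trbv12-1 and Trbv15 lie at 17.0% to 33.6%, and the other 16 at 56.1% to 90.5%.

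The question of KO against WT was asked first of the share of each segment, for the 13 segments with a mean of at least 1%. With 2 KO and 3 WT mice, an exact permutation test cannot go below p = 0.1. No segment passed after Benjamini-Hochberg adjustment over the 13 in either organ, with a lowest adjusted p of 0.65 in spleen and 0.52 in kidney (exact permutation test, two-sided), and none had an unadjusted p under 0.05. The values of KO and WT mice did not overlap for 2 of 13 segments in spleen (Trbv4 and Trbv26) and for 4 of 13 in kidney (Trbv2, Trbv4, Trbv19 and Trbv30). As background, 40.5% of all genes tested in spleen and 34.6% of those in kidney did not overlap in their depth-scaled UMI counts either, so the segments' counts were no more than that.

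Trbv4 was the segment whose groups stood apart in both organs. In spleen it was called by 4.62% and 5.01% of calling cells in KO1 and KO2 against 3.4%, 2.50% and 2.15% in WT1, WT2 and WT3. In kidney the values were 2.81% and 2.94% against 1.64%, 1.82% and 1.65%, on 9 and 3 cells of the KO mice. Both KO mice were above all 3 WT mice in each organ, with p = 0.1 in both (exact permutation test, adjusted p 0.65 and 0.52). Trbv2 in kidney was called by 6.25% and 6.86% in KO mice and by 3.39%, 5.36% and 2.21% in WT mice, while in spleen all 5 mice lay between 7.33% and 8.07%. Trbv30 in kidney was called by 9 of 320 and 3 of 102 cells in KO1 and KO2 (2.81% and 2.94%) and by 8, 4 and 2 cells in WT1, WT2 and WT3 (0.935%, 0.456% and 0.368%).

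The cells were also summed to 1 count per gene and sample and compared with edgeR's quasi-likelihood test over all genes. In spleen 0 of 34 Trb genes passed an adjusted p of 0.05, against 0.571% of all genes (66 of 11556). In kidney 0 of 29 Trb genes passed, and the test called 0% of all 10170 genes. At an unadjusted p under 0.05 there were 2 Trb genes in spleen (Trbv4 and Trbv19), where 18% of all genes were, and 8 in kidney, where 12.6% of all genes were. Of the 8, 2 were higher in KO (Trbv30 and Trbv4), and DESeq2 called 1 in each organ, Trbv4 in spleen and Trbv30 in kidney. Trbv4 stood at 43.2 and 41.5 CPM (here scaled by edgeR's TMM factors) in the KO spleens and 28.0, 24.0 and 19.7 in the WT spleens, a log2 difference of 0.82 ± 0.18 (SE) with an adjusted p of 0.101 in edgeR's quasi-likelihood test. In kidney Trbv4 differed by 0.80 ± 0.30 (adjusted p 0.36, edgeR).

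The counts changed with 1 WT mouse. The 66 genes of the spleen fell to 0 without any 1 of the other 4 mice. Without WT1, edgeR called 2363 genes in spleen and 5 Trb genes (Trbv4, Trbv12-2, Trbv13-1, Trbv19 and Trbv20), and 1370 genes in kidney and 4 Trb genes (Trbv13-1, Trbv15, Trbv26 and Trbv30). Trbv30 stood at 25.1 and 19.5 CPM in the KO kidneys against 8.84, 3.8 and 3.27 in the WT kidneys, log2 2.06 ± 0.45 with an adjusted p of 0.255 (edgeR, all 5 mice). In spleen its values overlapped between the genotypes, with WT1 highest at 11.7 CPM. Trbv26 in kidney stood at 57.8 and 37.6 CPM in KO mice and 64.4, 120 and 198 in WT mice (log2 -1.35 ± 0.48, adjusted p 0.348, edgeR), and no such gap was seen in spleen, where its log2 difference was -0.02 ± 0.18. Trbv15 in kidney had a log2 difference of -1.53 ± 0.51 (adjusted p 0.326, edgeR). For the difference of the KO effect between the organs, the interaction test called 0% of 11773 genes and 0 of 35 Trb genes by edgeR and 0 Trb genes by DESeq2. An unadjusted p under 0.05 was found for 3.34% of all genes and for 3 Trb genes, Trbv23, Trbj2-6 and Trbv26, of which Trbv23 was at 0 in both KO kidneys and under 5 CPM in every sample.

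The sums of Trbv and of Trbc UMIs did not overlap between the genotypes in either organ. Trbv UMIs per 10000 UMIs of a sample were 12.2 and 14.1 in the KO spleens against 15.1, 15.5 and 15.1 in the WT spleens, and 9.42 and 10.2 in the KO kidneys against 12.1, 12.9 and 13.8 in the WT kidneys. Both KO mice lay below all 3 WT mice in each organ (difference -2.07 in spleen and -3.13 in kidney, p = 0.1 each, exact permutation test, the smallest p this design allows). Trbc UMIs per 10000 were 2.91 in each KO spleen against 3.02 to 3.45 in WT spleens, and 2.25 and 2.29 in KO kidneys against 2.65 to 3.20 in WT kidneys (p = 0.2 each, exact permutation test). The sum of Trbj UMIs per 10000 overlapped in kidney, with 0.442 and 0.336 against 0.384 to 0.545 (p = 0.6, exact permutation test), as did Trbc1 on its own, with 83.7 and 96.0 against 81.1 to 118 CPM. As background, 25.8% of all genes in spleen and 21.1% in kidney had both KO mice below all WT mice.

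The share of kept cells that called a segment was 60.6% and 59.4% in KO spleens against 64.2% to 66.8% in WT spleens, and 50.2% and 52.3% in KO kidneys against 54.9% to 61.5% in WT kidneys. With every cell thinned to 2000 UMIs, which left out 18 to 285 shallower cells per sample, the shares were 46.1% and 49.7% against 53.9% to 55.7% in spleen and 38.9% and 33.3% against 46.3% to 48.6% in kidney. The order of the genotypes was therefore the same at equal depth (p = 0.1 in each organ, exact permutation test, against 0.1 in spleen and 0.2 in kidney before thinning). Cells set aside for CD8 genes numbered 65 of 717 and 22 of 219 cells in the KO kidneys and 69 of 1580 in the spleen of KO2 (9.07%, 10% and 4.37%), against 1.51% in the spleen of KO1, 1.58% to 2.09% in the WT kidneys and 0.217% to 0.838% in the WT spleens. In bulk sums and in shares of cells alike, fewer T cells and less receptor RNA per cell cannot be told apart. The part of remaining CD8 cells in these values was not tested.

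Of 9 genes of the receptor complex and its first signalling steps (Trac, Cd3e, Cd3d, Cd3g, Cd247, Cd4, Lck, Zap70 and Lat), all 9 had a log2 difference below 0 in KO spleens and in KO kidneys, with medians of -0.32 and -0.40 against -0.01 and 0.00 over all genes, and edgeR called none of the 9 in either organ. Cd3g, a chain of the CD3 signalling module, stood at 784 and 853 CPM in KO spleens against 1080, 1240 and 1300 in WT spleens (log2 -0.56 ± 0.12, adjusted p 0.101, edgeR). Over the Trb genes tested the median was -0.06 in spleen (34 genes, 22 below 0) and -0.30 in kidney (29 genes, 20 below 0).

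Of the recombination genes, Rag1 and Rag2, which cut the DNA for the joining, had 0 UMIs in every sample, and Ptcra, the surrogate alpha chain of thymocytes, had 1 UMI in each of 2 spleens. Dntt, the enzyme that adds bases at the joins, had 12 and 20 UMIs in the spleens of KO1 and KO2 and 0, 0 and 1 in those of WT1, WT2 and WT3, with a single UMI among the 5 kidneys. Its adjusted p in spleen was 0.0622 (edgeR), and it was not among the genes called. Of the 8 list genes tested in spleen and the 6 in kidney, none passed for KO against WT.

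Kidney and spleen of the same mouse were compared next. Trbv2 was called less often in kidney in all 5 mice: 6.25% against 7.56% in KO1, 6.86% against 7.40% in KO2, 3.39% against 8.07% in WT1, 5.36% against 7.33% in WT2 and 2.21% against 7.99% in WT3. Its mean was 4.81% in kidney and 7.67% in spleen, a difference of -2.86 ± 2.26 percentage points (SD, n = 5 mice, p = 0.0625, exact sign-flip permutation test, the smallest p that 5 mice allow, adjusted 0.406). The share of Trbv4 was also lower in all 5 kidneys, with 2.17% against 3.54% (difference -1.36 ± 0.722, p = 0.0625, exact permutation test, adjusted 0.406). In KO2 that kidney share rests on 3 of 102 cells. The summed UMIs of Trbv4 were higher in the kidney of KO2, with 44.6 CPM (TMM scale) against 39.1 in its spleen. It was not called between the organs (log2 -0.29 ± 0.16, adjusted p 0.223, edgeR). The shares of the other 11 segments did not go 1 way in all mice, and 0 of 13 passed the adjusted test, none having an unadjusted p under 0.05. Over all genes, 42.8% went 1 way in all 5 mice, 31.1% towards lower values in kidney.

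In the summed counts edgeR called 2 of 35 Trb genes between kidney and spleen, against 22.3% of all 11773 genes (12.8% higher and 9.57% lower in kidney). This fit held genotype and organ but not the mouse, so the organs of an animal were treated as unpaired. Trbv2 was lower, with 18.4 to 49.7 CPM in the kidneys and 60.6 to 79.8 in the spleens (log2 -0.79 ± 0.23, adjusted p 0.03, edgeR). The 2 sets of values did not overlap. Trbj1-7 was higher, with 1.75 to 4.31 CPM against 0.556 to 1.91 (log2 1.40 ± 0.43, adjusted p 0.0396, edgeR), on 3 to 13 UMIs per kidney and 3 to 8 per spleen. Neither call held without KO1 or without KO2, and Trbv2 alone was called without WT3. Without WT1 there were 5 calls: Trbv2, Trbv13-1, Trbv13-2, Trbv30 and Trbv31. With the mouse as a block, which pairs the organs of an animal, edgeR called 35.5% of all genes (4175) and 7 Trb genes. Lower in kidney were Trbv2 (log2 -0.84), Trbv16 (-0.64), Trbv13-3 (-0.42) and Trbv13-1 (-0.41), and higher were Trbj1-7 (1.41), Trbv30 (1.16) and Trbv19 (0.30).

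**Figure D3:**
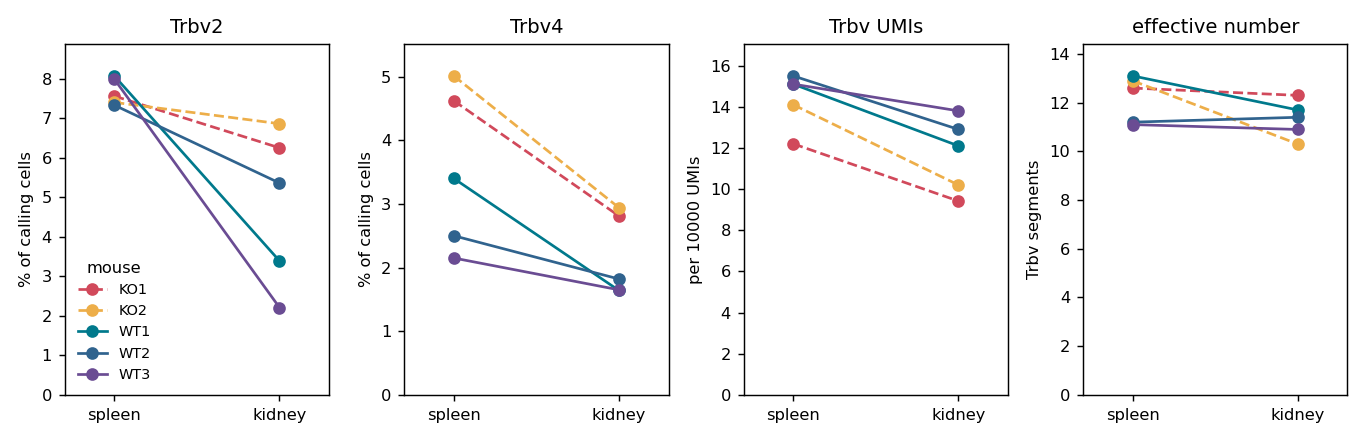
The 4 panels join the spleen and the kidney of each mouse (KO dashed, WT solid) for the share of calling cells with Trbv2 and with Trbv4 (%), Trbv UMIs per 10000 UMIs, and the effective number of Trbv segments. The shares of Trbv2 and of Trbv4 and the Trbv UMIs are lower in the kidney in all 5 mice, and the effective number is lower in 4 of 5.

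Trbv RNA was lower in kidney in 5 of 5 mice, with 11.7 ± 1.83 against 14.4 ± 1.34 UMIs per 10000 (SD, n = 5 mice, p = 0.0625, exact sign-flip permutation test). Trbc RNA was lower in 5 of 5 mice as well, with 2.68 ± 0.422 against 3.13 ± 0.26 (p = 0.0625, exact permutation test). On the TMM scale of edgeR the constant genes differed by less, with a log2 difference of -0.06 ± 0.12 for Trbc1 and -0.07 ± 0.09 for Trbc2, beside a median of -0.05 over all genes, so the size of this difference depends on the scaling. Trac, the alpha constant gene, and Cd3d fell in kidney (log2 -0.29 ± 0.08 and -0.23 ± 0.07, adjusted p 0.0216 and 0.0448, edgeR), and the other 7 receptor complex genes were not called. Of the recombination and end-joining genes 8 were tested and 3 were called, all lower in kidney. They were Lig4, the ligase of DNA end joining (log2 -1.96 ± 0.37), Xrcc4, its partner (-0.41 ± 0.09), and Prkdc, the DNA-dependent protein kinase (-0.43 ± 0.12). Their adjusted p were 0.00403, 0.00754 and 0.0272 (edgeR). Lig4 was low in both organs, with 0.526 to 2.88 CPM in the kidneys and 4.29 to 5.93 in the spleens. As background, the same fit, which left the mouse out, called 22.3% of all genes, 9.57% of them as lower in kidney.

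Diversity was summarised as the effective number of segments, the exponential of the Shannon entropy, which equals the number of segments if all were used equally. It was 12.6, 12.9, 13.1, 11.2 and 11.1 in the spleens of KO1, KO2, WT1, WT2 and WT3, and 12.3, 10.3, 11.7, 11.4 and 10.9 in their kidneys. The KO spleens had 12.7 ± 0.25 (SD, n = 2) against 11.8 ± 1.15 in the WT spleens (n = 3, p = 0.4, exact permutation test), and WT1 was higher than both KO mice. In kidney the means were 11.3 ± 1.37 and 11.3 ± 0.43 (p = 0.9, exact permutation test). Kidney was lower than spleen in 4 of 5 mice, by 0.842 ± 1.14 segments on average (p = 0.188, exact sign-flip permutation test). As the number of segments expected in an equal number of cells, kidney was instead higher in 3 mice and lower in 2 (14.5 against 15.1 on average, p = 0.812, exact sign-flip permutation test). The difference between organs in effective number did not differ by genotype beyond its spread (p = 0.5, exact permutation test).

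Trbv usage of a kidney was then set beside that of each spleen by their overlap, the sum over segments of the smaller of both shares. The mean overlap was 84.6% for the 2 organs of 1 mouse and 82.3% for organs of different mice. The difference of 2.31 percentage points had p = 0.0417 when spleens were reassigned to kidneys in all 120 ways (exact permutation test, two-sided), and p = 0.25 when spleens were exchanged only within a genotype (12 ways, smallest p 0.0833, exact permutation test). The kidneys of WT1, WT2 and WT3 resembled their own spleen most, with 89.0%, 90.1% and 78.5% against at most 87.5%, 85.5% and 77.0% for another mouse's spleen. The kidneys of KO1 and KO2 did not: their own spleens ranked 3 and 4 of 5, with 85.1% and 80.4% against up to 88.6% and 82.0%, the kidney of KO2 on 102 calling cells. The difference lost its p under 0.05 without any 1 of the WT mice (1.29 to 2.03 points, p = 0.167 to 0.375, exact permutation test) and with cells thinned to 2000 UMIs (1.70 points, p = 0.292, exact permutation test). With 4 mice the smallest p of this permutation test is 0.0417, so only the highest-ranked assignment can pass. That value was reached without KO1 (3.12 points) and without KO2 (3.47 points).

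**Figure D4:**
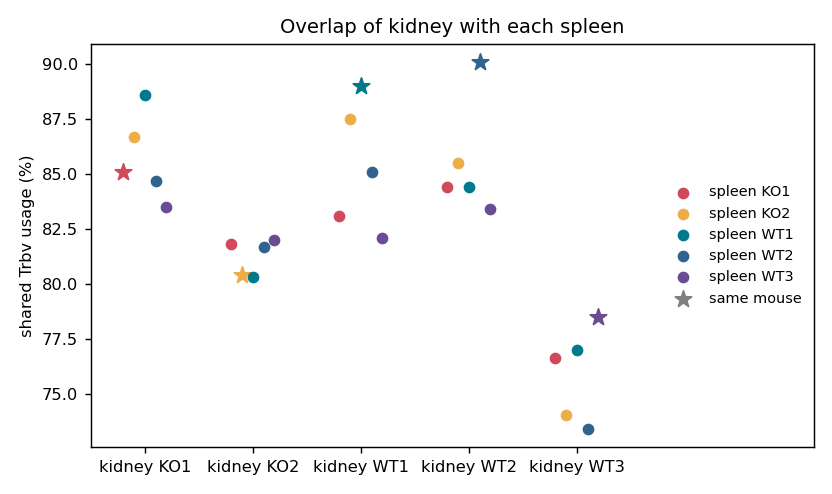
For each kidney (horizontal axis) the points give the overlap of its Trbv usage with each of the 5 spleens (vertical axis, %, axis not starting at 0), with the spleen of the same mouse as a star. The star is highest in the 3 WT kidneys, at rank 3 in KO1 and rank 4 in KO2, and all points of the kidney of WT3 lie between 73.4% and 78.5%.

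Mice of 1 genotype were not more alike than mice of different genotypes. Within an organ, the mean overlap was 81.4% within and 81.7% between genotypes in kidney (p = 1, exact permutation test) and 85.1% and 86.8% in spleen (p = 0.5, exact permutation test). The lowest of all kidney pairs was KO2 with WT3 (68.9%), and the highest spleen pair was KO2 with WT1 (91.7%). The kidney of WT3 had an overlap of 68.9% to 79.9% with the other kidneys.

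The joining segments gave too few UMIs to be followed in single cells, since only 79 cells called both a Trbv and a Trbj segment at 2 UMIs. Of all Trbj UMIs of a sample, Trbj2-1 held 23.3% ± 4 (SD, n = 10 samples), Trbj2-7 14.0% ± 4.64 and Trbj1-1 10.6% ± 3.15. The lowest were Trbj1-6 with 1.73% ± 1.01 and Trbj1-3 with 2.64% ± 1.29. The Trbj1 cluster held 38.8% and 56.0% of Trbj UMIs in the KO kidneys and 35.5% to 37.5% in the WT kidneys, and 26.1% to 30.6% in KO spleens against 23.1% to 38.1% in WT spleens (p = 0.1 in kidney and 0.7 in spleen, exact permutation test). The 56.0% is 14 of 25 UMIs in the kidney of KO2.

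In the locus the Trbj1 cluster lies 5′ of Trbc1 and the Trbj2 cluster 5′ of Trbc2, and a joined segment is spliced to the constant gene that follows it. Trbc1 made up 27.9% to 41.3% of Trbc UMIs in every sample, with no difference between genotypes beyond the spread (p = 0.6 in kidney and 1 in spleen, exact permutation test). At 1 UMI of a Trbj segment, Trbc1 was the gene called in 51.8% of 247 cells with a Trbj1 segment (Wilson interval 45.6 to 58.0) and in 30.1% of 605 cells with a Trbj2 segment (26.6 to 33.9). At 2 UMIs the same shares were 6 of 11 and 6 of 27 cells. Trbc1 and Trbc2 are near-identical in their coding sequence, so how their reads were split is uncertain.

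A second segment was common in cells with more Trbv RNA. Of 6726 cells with at least 4 Trbv UMIs, 820 held 2 UMIs or more of each of 2 segments, with the second at 25% or more. The share was 8.70% to 15.7% by sample (mean 12.4%), and 266 cells had 4 UMIs of the second segment. Cells with 2 segments had a median of 3907.5 UMIs against 3653 in cells with a single one, and were the deeper in every sample but the spleen of WT2. They spread over 152 pairs of segments, 38 of them seen in 1 cell, and no doublet caller was run.

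A few pairs were found in at least 10 cells of a mouse. Trbv1 with Trbv13-1 was found in 53 cells of WT3, 16 in kidney and 37 in spleen, and in 6 cells of the other 4 mice. Of these 53 cells 86.8% held a UMI of Trav6-2, an alpha variable segment, against 6.44% of the other cells of WT3, with 91.9% in spleen and 75% in kidney. Their median was 3644 UMIs, against 3435.5 in the kidney and 3482.5 in the spleen of WT3 for cells with a single segment. Trbv17 with Trbv19 was found in 11 cells of WT3 and in no other mouse, and 81.8% of them held Trav2 against 3.10%. Trbv1 with Trbv13-2 (20 cells, 6 in other mice) and Trbv13-1 with Trbv20 (17 cells, 8 in other mice) also recurred in WT3, and Trbv2 with Trbv15 in KO2 (13 cells, all in spleen, 4 in other mice). Trbv12-2 with Trbv13-2 (14 cells in WT1) and Trbv13-2 with Trbv19 (10 cells in WT1) were found in more cells of the other mice, 21 and 15. These 7 pairs are all that reached 10 cells in a mouse, and without them the share of cells with 2 segments in the spleen of WT3 was 6.44% in place of 12.3%.

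Within cells of 1 Trbv segment, the alpha segments were then examined for a Trav gene at least 20 percentage points more frequent than in the other calling cells of that spleen. Spleens alone were used for this choice, so the spleen values are a description. The rule found 0 such pairs in KO1 and in WT1, 1 in KO2, 5 in WT2 and 7 in WT3. The kidney of the same mouse, which was not used for the choice, had the Trav gene more often than its other calling cells in 11 of the 12 pairs with at least 5 kidney cells. Some of these excesses were small. Trbv13-3 with Trav4-4-dv10 in WT2 stood at 9.86% against 9.31%. Trbv2 with Trav3-3 in WT3 stood at 8.33% against 6.02%, on 1 of 12 cells. Set against the other mice, the kidney value was higher in 1 of 1 pair of KO2, 4 of 5 of WT2 and 5 of 6 of WT3. Pairs that fell short of the rule could have such a kidney excess too. In WT2 these were Trbv1 with Trav7-1 (6.58% against 1.12%), Trbv13-2 with Trav4-3 (10.9% against 4.71%) and Trbv19 with Trav3-3 (14.6% against 5.81%). Trbv20 with Trav7d-4 (6.19% against 1.96%) and Trbv31 with Trav21-dv12 (3.12% against 2.21%) did so as well. Trbv13-1 with Trav14d-3-dv8 went the other way (2.86% against 3.76%).

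The largest excess among the chosen pairs was that of Trbv20 with Trav14-1 in WT3. In its spleen 176 of 257 Trbv20 cells (68.5%, Wilson interval 62.6 to 73.9) held Trav14-1, in its kidney 33 of 58 (56.9%, 44.1 to 68.8), and in the other mice 2.32% of 689. Cells with both made up 13.0% of the calling cells in that spleen and 6.07% in the kidney. In the same mouse, Trbv3 with Trav21-dv12 and Trbv5 with Trav14d-3-dv8 each reached 50% of 22 and 18 spleen cells. Trbv31 with Trav8d-1 gave 50.4% in spleen, 41.4% of 29 cells in kidney and 6.84% in the other mice, and Trbv13-1 with Trav6-2 gave 35.6%, 45.9% of 74 cells and 0.419%. In KO2, 24 of 60 spleen cells with Trbv13-3 held Trav19 (40%), as did 2 of 7 in its kidney, against 0.556% in the other mice. In WT2, 4 of 5 pairs had the Trav gene more often in kidney than in its other calling cells, of which Trbv4 with Trav13-1 reached 37.5% of 16 cells. Trbv26, the segment that led the kidney of WT3, fell short of the rule in that mouse: Trav1 was found in 18.8% of its Trbv26 cells in spleen, 17.2 points above its other calling cells, and in 17.6% in kidney. Just inside the rule lay Trbv2 with Trav3-3 and Trbv29 with Trav14d-3-dv8 in WT2, each with an excess of 20.2 points.

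**Figure D5:**
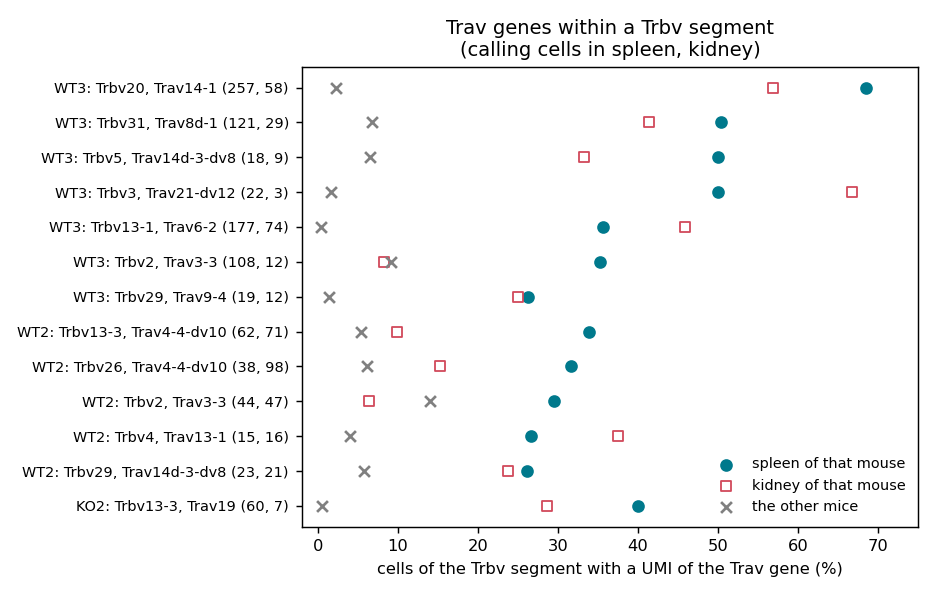
Each row is a Trbv segment and a Trav gene chosen in the spleen of the named mouse, with the number of calling cells in spleen and kidney in brackets. The horizontal axis gives the share of those cells with a UMI of the Trav gene (%), in the spleen used for the choice (circle), the kidney of the same mouse (square) and the other mice (cross), with Trbv20 and Trav14-1 of WT3 at 68.5%, 56.9% and 2.32%.

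Usage was last compared between cells of 1 sample with and without a UMI of the cytotoxic genes Nkg7, Gzmk and Gzmb. Such a UMI was found in 92.5% to 97.8% of the kept cells of WT2 and WT3, 62.5% and 66.6% of WT1, and 27.6% to 50.8% of the KO samples. Trbv4 was less frequent in cells with a cytotoxic UMI in all 6 samples with 50 calling cells on each side, with a mean of 2.69% against 4.45% (difference -1.76 ± 1.70 points, SD). It was the single segment of the 13 that went 1 way in all 6, and the 6 samples come from 4 mice. Such a count of 1 of 13 can arise without any link of a segment to these genes. The part of this cell state in the Trbv4 difference between genotypes was not tested. In cells with a UMI of Foxp3, the factor of regulatory T cells, Trbv29 was more frequent in 3 of 3 spleens that could be compared (4.37% against 1.55%), and Trbv20 (8.73% against 12%) and Trbv4 (4.08% against 4.39%) were less frequent in 3 of 3. These were 3 of 13 segments, a count that 3 spleens can give without any link of a segment to Foxp3. No test was made over 3 spleens.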

How the data were processed

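Cells of the kidney and spleen matrices carry hashtag antibodies, and UMI counts per gene and cell were deposited by the authors as pooled matrices, made with Cell Ranger 7.1.0 and Seurat 5.0.1 on mm10 (GRCm38) per the submitters' processing notes. The sources used here do not state the read layout or how reads matching several segments were counted. The deposited tag key was joined to the hashtag numbers by its order within a day, which no file states, and cells were assigned to a mouse for the first day, where the leading tag of a block matched. Cells with under 200 genes or with 10% or more of mitochondrial UMIs, and cells led by a tag other than their block's were left out. No doublet caller was run. The 8 second-day blocks were not used: 6 hold the same 2399 barcodes and the other 2 hold 2148 and 981 of those. These barcodes stand in both organ matrices, so no cell has a single mouse or a known organ.

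Shares, diversity and overlaps were computed with Python 3.11.15 (NumPy 2.4.6, SciPy 1.17.1, pandas 2.3.3) and tested over mice by exact permutation, two-sided. Counts summed per mouse and organ (743513 to 9481466 UMIs) were tested in R 4.3.3 with edgeR 4.0.16 (filterByExpr, TMM, quasi-likelihood, Benjamini-Hochberg over all genes tested), with DESeq2 1.42.0 as an alternative. Adjusted p-values in the text are edgeR's unless another test is named. P-values for KO against WT within an organ and of the exact permutation tests measure the spread between these mice. The edgeR fits between organs and of the interaction left the mouse out, unless it is named as a block. They treated the 10 samples of 5 mice as independent. Kidney and spleen of 1 mouse are paired in the sign-flip tests and the block fits, since the tag key names the same mouse for both. Deviations of the organs of a mouse from their group means correlated at 0.706, 0.624 and 0.394 in WT1, WT2 and WT3 and at 0.0158 in KO1 and KO2, over 11773 genes. The KO value is a single one, since deviations from the mean of 2 mice mirror each other. The scripts were tested on simulated data.

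Named genes were the constant genes, the 8 most used and 4 least used Trbv segments, the leading segment of each sample, the superantigen list, the highest and lowest Trbj segments, and the Trb genes called by edgeR or else the 3 with the smallest p. Trbv13-3, Trbv29, the recurring pairs, Cd3g and Dntt were named after their values were seen. The Trb genes and all lists were chosen with earlier results of these data known. A split of the Trbv RNA levels by naive T cell genes is not reported here.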

Additional observations from a re-analysis of the deposited data

Results flagged for a closer look

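Cells of the second day could not be assigned to a mouse, nor to an organ, since the same barcodes stand in blocks of both organ matrices. In 1 of the largest blocks, read from the kidney matrix, 1207 of 2392 cells called a Trbv segment. This is 50.5% (95% Wilson interval 48.5 to 52.5), where a count of 0 would allow up to 0.125%. It is listed because the comparisons do not use these cells. Their effective number of segments was 12.8, led by Trbv19 (14.9%) and Trbv13-1 (14.0%), and their overlap with the 10 first-day samples ran from 76.2% (kidney of WT3) to 90.5% (kidney of WT1). Groups of 2 and 3 mice are too small for a test of outlying samples.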

How the results depend on the processing

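The difference in overlap between organs of 1 mouse and of different mice (2.31 points) stayed above 0 under every alternative run, but missed the 0.05 threshold of its exact permutation test with 5 UMIs for a call (2.49), more than 50% dominance (2.06), cells thinned to 2000 UMIs (1.70), the Morisita-Horn index (0.964) and cosine similarity (0.904). Leaving out 1 mouse gave 1.29 to 3.47. The KO minus WT diversity of the kidney (-0.0413 segments) changed sign with 1 UMI (0.63) or 5 UMIs (0.407) for a call, no gate (0.0796), summed UMIs (0.835) and the inverse Simpson index (0.765), and ran from -1.01 to 0.929 without 1 mouse. The within minus between genotype overlap of the kidney (-0.258) changed sign with 5 UMIs (1.40), more than 50% dominance (0.193), no gate (0.867), cells without naive genes (1.03) and thinning (0.15), and ran from -3.66 to 3.13 without 1 mouse. In spleen (-1.66) it was 1.08 in cells without naive genes and -3.18 to 0.933 without 1 mouse. A second segment at 4 UMIs was found in a mean of 3.95% of cells.

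For KO against WT in spleen, the 66 genes became 762 with DESeq2, 529 with no filter on low counts, 28 with no gate and 0 in cells without naive genes, and 0 to 2363 without 1 mouse, with 1 Trb gene by DESeq2 and 1 without the filter, and 0 to 5 without 1 mouse. In kidney the count of 0 became 105 with DESeq2, 662 with no filter and 0 to 1370 without 1 mouse, with 1 Trb gene by DESeq2, 4 with no filter and 0 to 4 without 1 mouse. Between organs the 2631 genes became 1530 in cells without naive genes and 1417 to 2868 without 1 mouse, and the 2 Trb genes 1 with no gate, 1 in cells without naive genes and 0 to 5 without 1 mouse. With the mouse as a replicate block they were 4175 and 7. The interaction gave 1 gene by DESeq2, 3 with the replicate block and 0 to 2 without 1 mouse. The cause of these changes was not tested. Pairs of a Trbv and a Trbj segment were not run as an alternative, since 79 cells hold both.

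The number of cells limits the kidney of KO2 most, where 102 calling cells allow an unseen segment up to 2.94%. Of 70 recomputed largest shares, 64 stayed inside their interval.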
